A study of Glycine max with 12 samples.

Results

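Chalcone synthase (CHS) is encoded in soybean (Glycine max) by a family of gene copies, of which 8 are described here across leaf and root of plants with and without a GmZF351 transgene. The 8 were listed by identifier, with earlier results of these data known, and are 8 of the 43517 gene models in the deposited count table. They are CHS7 (Glyma.01G228700), CHS8 (Glyma.11G011500), CHS6 (Glyma.09G075200), CHS2 (Glyma.05G153200) and the chromosome 8 copies Glyma.08G109200, Glyma.08G109300, Glyma.08G109400 and Glyma.08G109500. All 8 passed the filter on low counts and were tested. Other loci that RefSeq names as CHS genes lie outside these 8, and the most abundant of them, CHS13, is given at the end.

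The study sequenced RNA from 4 groups of 3 libraries. OE leaf and OE root came from line OE-34, which overexpresses GmZF351, whose tandem CCCH zinc finger product is known to raise oil content of seeds. WT leaf and WT root came from Jack, the control plants. Both kinds of plant grew in pots and were cut at the V1 stage, with the first trifoliate leaf open, and the labels give no stress or other treatment. A single transgenic line stands for the genotype, and the sources used here do not name the promoter of the transgene or say whether a library holds 1 plant or a pool. The labels call the libraries biological repeats, so p-values measure the spread between them.

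Chalcone synthase joins a coumaroyl-CoA starter with malonyl-CoA units to make naringenin chalcone, the first dedicated step of flavonoid synthesis. In legumes its product also feeds isoflavonoids, which root tissue stores and releases and which serve as antimicrobial compounds and as signals to nodulating rhizobia. Soybean CHS copies are closely alike in coding sequence, and inverted repeats of some of them on chromosome 8 are known as the I locus, where small RNAs silence the family in seed coats of yellow-seeded cultivars. CHS7 and CHS8 are known as the copies that carry most isoflavonoid synthesis in seed and root, and MYB176 is known as an activator of CHS8.

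Library totals ran from 16885874 to 19041634 counts. GmZF351 (Glyma.06G290100) had 1 count over the 3 WT leaf libraries and 4 over the 3 WT root libraries, whereas OE leaf averaged 2296 CPM (counts per 1000000) and OE root 1355. Both leaf markers, the Rubisco small subunit gene RBCS2 and the Rubisco activase gene RCA11, averaged 2.81 to 5.06 CPM in the root groups and 6515 to 25970 CPM in the leaf groups. In these bulk samples, fewer cells that express a gene and less RNA per cell cannot be told apart. WT root replicate 3 stood apart from its group, with a chi-square per gene of 9.87 and 7.1 against the other two, where all other pairs of replicates in the study lay between 2.26 and 7.37.

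The copies differ in place and structure, all in the Wm82.a2.v1 annotation. CHS7 lies on the plus strand of chromosome 1 from 55659010 to 55660950, and its merged exons number 2 and cover 1496 bp. CHS8 lies on the plus strand of chromosome 11 from 802453 to 804663, with 2 exons over 1744 bp. CHS6 lies on the minus strand of chromosome 9 from 8145494 to 8147595, with 2 exons over 1455 bp. CHS2 lies on the plus strand of chromosome 5 from 34687009 to 34693243, with 4 exons over 1980 bp in a span of 6235 bp, so its model is longer and more broken up than those of CHS6, CHS7 and CHS8.

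The 4 chromosome 8 copies stand side by side within 15010 bp, from 8384742 to 8399751. Glyma.08G109200 (8384742 to 8386542, plus strand, 1680 bp of exon) is followed after 966 bp by Glyma.08G109300 (8387509 to 8391327, minus strand, 2792 bp). Only 36 bp separate that copy from Glyma.08G109400 (8391364 to 8394840, plus strand, 3355 bp), and 3103 bp further lies Glyma.08G109500 (8397944 to 8399751, plus strand, 1669 bp). The recorded counting command sets no strand option and does not ask for multi-mapping reads. Reads shared by near-identical copies would then go uncounted, and reads that run past a gene end into an opposite neighbour cannot be told apart from the neighbour's own. How far either limit touches each copy was not measured here.

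In control plants the make-up of these 8 copies differed between root and leaf. CHS13, which lies outside the 8 and was above their sum in leaf, is left out here. Levels (CPM) are on library sizes scaled by TMM, a factor that corrects for RNA composition, and levels of different copies are compared per kilobase (kb) of gene model. In WT root CHS7 stood first at 643 ± 19.4 CPM per kb (SD, n = 3) and CHS8 second at 361 ± 10.1. Glyma.08G109500 came next at 23.7 ± 2.31 CPM per kb, then Glyma.08G109400 at 9.25 ± 0.635, Glyma.08G109200 at 5.28 ± 0.37 and CHS6 at 4.3 ± 0.674. CHS2 (3.25 ± 0.201 CPM per kb) and Glyma.08G109300 (3.15 ± 0.32) closed the order, and this last pair overlapped across libraries while all other neighbours did not.

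WT leaf had another order. CHS8 stood first there at 39 ± 2.68 CPM per kb, followed by Glyma.08G109400 at 17.8 ± 0.716, CHS7 at 6.75 ± 0.569 and CHS2 at 2.47 ± 0.207, with no overlap between neighbours. Glyma.08G109500 (0.905 ± 0.365 CPM per kb), Glyma.08G109200 (0.833 ± 0.936) and CHS6 (0.772 ± 0.564) overlapped, and Glyma.08G109300 was last with 5 counts over 3 libraries. CHS7 and CHS8 together made up 95.35 ± 0.213% of the summed level of the 8 copies in WT root and 66.72 ± 2.03% in WT leaf. The 4 chromosome 8 copies together made up 3.933 ± 0.142% in WT root and 28.57 ± 2.03% in WT leaf, nearly all of the latter from Glyma.08G109400 (25.9%).

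**Figure D1:**
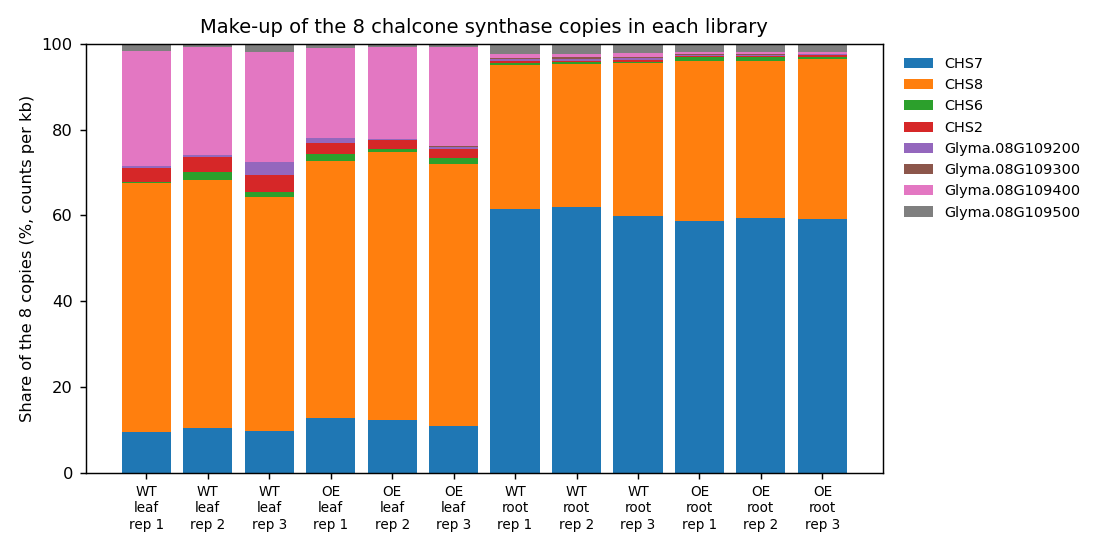
Stacked bars give, for each of the 12 libraries, the percentage of the summed level of the 8 copies (counts per kb of gene model) that each copy contributed; the 3 bars of a group are its replicates. CHS8 and Glyma.08G109400 fill most of the leaf bars, and CHS7 with CHS8 fill over 95% of the bar in each root library.

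Tested between WT root and WT leaf, 6 of the 8 copies were higher in root and 1, Glyma.08G109400, was lower. Of all 35968 genes tested, 41.8% were called higher and 35.9% lower in that comparison at an adjusted p under 0.05. CHS7 differed most in level, from 9.56 to 11.1 CPM in the WT leaf libraries to 931.5 to 989.7 CPM in the WT root libraries, which is 95.2-fold (log2 difference 6.57, SE 0.116, edgeR adjusted p = 2.38e-31). CHS8 went from 63.1 to 72.4 CPM in leaf to 614.6 to 648.7 CPM in root, 9.24-fold (log2 3.21, SE 0.0927, adjusted p = 2.03e-25).

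Glyma.08G109500, next after CHS7 and CHS8 in root, had 0.821 to 1.98 CPM in the WT leaf libraries and 35.3 to 42.8 CPM in the WT root libraries, 26.1-fold (adjusted p = 1.12e-21). Glyma.08G109200 was 6.32-fold and CHS6 5.53-fold higher in root (adjusted p = 4.26e-06 and 3.58e-08). These folds are not precise, as the WT leaf libraries held 5, 7 and 39 counts of Glyma.08G109200 and 4, 24 and 13 of CHS6. With 1 library left out the log2 difference ran from 2.23 to 4.15 for Glyma.08G109200 and from 2.03 to 3.14 for CHS6. Glyma.08G109300 had 1, 1 and 3 counts in WT leaf and 169, 185 and 215 in WT root, so it passed (adjusted p = 8.58e-15) but no precise fold can be given. Glyma.08G109400 ran the other way, with 56.9 to 61.3 CPM in WT leaf and 28.6 to 32.4 CPM in WT root (1.92-fold lower, adjusted p = 5.27e-11), a difference that fell to -0.03 on the log2 scale with library totals in place of TMM. CHS2 had 4.88 ± 0.41 CPM in WT leaf and 6.44 ± 0.397 in WT root and did not pass (log2 difference 0.4, adjusted p = 0.0659), though it did with library totals (1.31, adjusted p = 2.79e-07).

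The neighbours in the chromosome 8 cluster therefore did not all share a pattern across tissues, as Glyma.08G109400 alone was not higher in root. Glyma.08G109400 and Glyma.08G109500 lie 3103 bp apart on the same strand, and their log2 levels, each centred on its own mean over the 12 libraries, differed by a root mean square of 2.99. CHS8 and CHS6 differed by 0.63 on this measure and CHS7 and Glyma.08G109400 by 3.76. Glyma.08G109300 differed from Glyma.08G109500 by 0.61, but with 0 to 3 counts in every leaf library its leaf level, and so this value, rests on the prior count of 2. CHS6 is also scarce in leaf, at 4 to 26 counts. These are descriptions over 12 libraries, most of whose spread lies between leaf and root.

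OE root against WT root is the comparison that asks how the transgenic line differed from Jack in root. All the copies but CHS6 were lower in OE root, so 7 of 8 were called lower and 0 higher. Over all genes tested 18.1% were called lower and 12% higher. The median log2 change of the 8 copies was -1.36, and that of all genes tested was -0.02. The 7 calls and their direction were the same under each normalisation, filter and fit tried, and without any 1 of the 6 root libraries, WT root replicate 3 included.

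CHS7, the most abundant copy in root, had 433.8, 389.3 and 425.3 CPM in the OE root libraries and 963.1, 989.7 and 931.5 CPM in the WT root libraries. The lowest WT root library lay above 2 times the highest OE root library. The copy was 2.31-fold lower in OE root (log2 change -1.21, SE 0.0853, adjusted p = 3.19e-13). CHS8, the copy that MYB176 is known to activate, had 320.3, 282 and 313.8 CPM in OE root and 614.6, 624.2 and 648.7 CPM in WT root. It was 2.06-fold lower (log2 change -1.04, SE 0.0839, adjusted p = 7.53e-12), again with no overlap between the groups.

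Chromosome 8 copies fell by more on the log2 scale. Glyma.08G109300 had 1.34, 1.55 and 1.59 CPM in OE root and 7.95, 8.71 and 9.73 CPM in WT root, 5.87-fold lower (log2 change -2.55, SE 0.243, adjusted p = 3.74e-10). Glyma.08G109200 had 1.71, 1.43 and 1.55 CPM in OE root and 9.59, 8.57 and 8.46 CPM in WT root, 5.66-fold lower (log2 change -2.5, SE 0.358, adjusted p = 1.26e-05). Both rest on 32 to 41 counts per OE root library, so their folds are less precise than those of CHS7 and CHS8.

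Glyma.08G109400 had 10.1, 9.25 and 8.64 CPM in OE root and 32.2, 28.6 and 32.4 CPM in WT root, 3.33-fold lower (log2 change -1.74, SE 0.1, adjusted p = 1.99e-15). Glyma.08G109500 had 14.9, 13.2 and 13.6 CPM in OE root and 40.6, 42.8 and 35.3 CPM in WT root, 2.84-fold lower (log2 change -1.51, SE 0.124, adjusted p = 1.28e-11). In each of the 4 chromosome 8 copies the highest OE root library lay below the lowest WT root library. CHS2 did likewise, at 3.88, 3.22 and 3.03 CPM in OE root and 6.86, 6.08 and 6.38 CPM in WT root (1.91-fold lower, adjusted p = 0.000256).

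CHS6 was the exception. Its 3 OE root libraries had 5.68, 5.18 and 3.86 CPM and its 3 WT root libraries 7.29, 6.12 and 5.34 CPM, so the groups overlapped. The log2 change was -0.35 (SE 0.241, adjusted p = 0.299), and with 97 to 155 counts per root library the log2 change of CHS8 lies over 2 SE below that value.

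**Figure D2:**
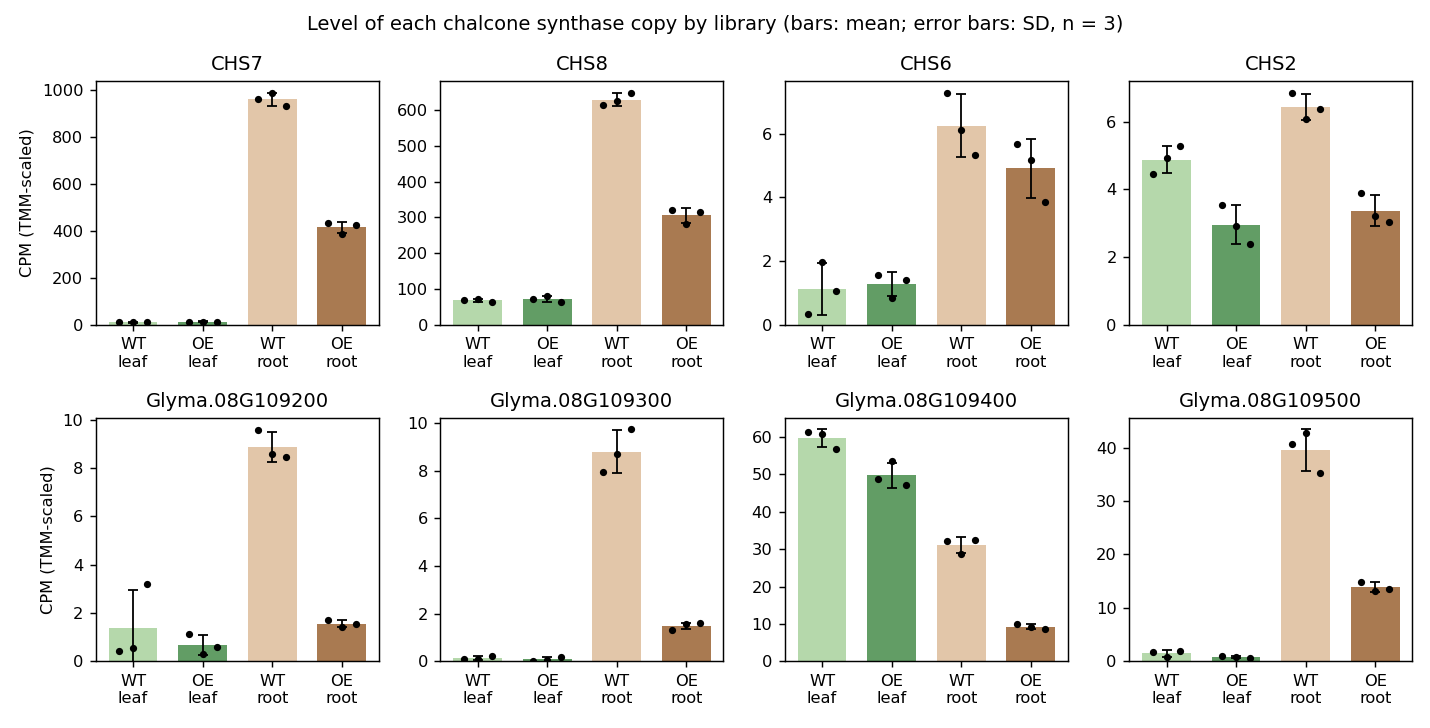
Each panel shows 1 copy, with CPM on TMM-scaled libraries on the vertical axis (starting at 0, scaled per panel), bars for the mean of each group, error bars for the SD (n = 3) and points for single libraries. In the root pair of bars, 7 of the 8 panels show no overlap between OE and WT points and CHS6 does; in leaf the points overlap in 6 panels, and the SD bar of Glyma.08G109200 in WT leaf is cut at 0.

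The unequal falls were set against CHS7 inside each root library, where library scaling plays no part. These ratios were chosen after the fold changes had been seen, apart from that of CHS8, which was planned as CHS7 to CHS8. Per 100 CHS7 counts, Glyma.08G109200 had 0.923 ± 0.0661 counts in WT root and 0.375 ± 0.0165 in OE root, and Glyma.08G109300 had 0.917 ± 0.114 and 0.36 ± 0.0467. Glyma.08G109400 had 3.24 ± 0.308 and 2.24 ± 0.185, and Glyma.08G109500 had 4.11 ± 0.282 and 3.34 ± 0.124. The OE and WT root libraries did not overlap for any of these 4 copies, each of which was lower against CHS7 in OE root.

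CHS8 and CHS6 went the other way against CHS7. CHS8 had 65.5 ± 3.6 counts per 100 of CHS7 in WT root and 73.4 ± 0.795 in OE root, and CHS6 had 0.65 ± 0.0955 and 1.18 ± 0.237. CHS2 had 0.671 ± 0.0509 and 0.811 ± 0.0926, with overlap. The two-sided exact permutation test gave p = 0.1 for each ratio except CHS2 (p = 0.2), and 0.1 is the smallest p that 3 against 3 allows. Adjusted over the 7 ratios these are 0.117 and 0.2, so the ratios describe these libraries and do not pass a threshold. The CHS8 ratio is the root ratio of CHS7 to CHS8 given below, turned over, so it is the same test and not a further result.

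Summed per kb, the 8 copies gave 1041 to 1069 CPM per kb in the WT root libraries and 439.2 to 492.9 in the OE root libraries. The share of CHS7 and CHS8 was 96.25 ± 0.292% in OE root against 95.35 ± 0.213% in WT root, and that of the chromosome 8 copies 2.672 ± 0.111% against 3.933 ± 0.142%. The order of the leading copies in OE root was CHS7 (278 ± 15.8 CPM per kb), CHS8 (175 ± 11.8) and Glyma.08G109500 (8.33 ± 0.529), as in WT root. Below them CHS6 (3.37 ± 0.644 CPM per kb) and Glyma.08G109400 (2.78 ± 0.212) overlapped in OE root, where in WT root Glyma.08G109400 stood clear above CHS6.

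In leaf the same model was used. CHS2, Glyma.08G109400 and Glyma.08G109500 were called lower in OE leaf, so 3 of 8 copies were lower and 0 higher, against 22.1% lower and 18.3% higher over all genes tested. With library totals in place of TMM, CHS7 and CHS8 were called higher instead and none lower, as the median of all genes moved to 0.38 on the log2 scale. With those totals 19937 of all 35968 genes tested were called, in either direction. Over the 7 copies with at least 10 counts in some leaf library, all but Glyma.08G109300, the median log2 change was -0.26. This cut was made after the values had been seen. Over all 8 copies the median was -0.47, and that of all genes tested, without such a cut, was 0. Both leaf markers were lower in OE leaf (RBCS2 6515 against 13640 CPM, adjusted p = 1.32e-09; RCA11 15310 against 25970 CPM, adjusted p = 1.17e-07), their summed level running from 20222 to 22978 CPM there and from 37170 to 42870 CPM in the WT leaf libraries, and their part in the leaf result was not tested.

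CHS8, the leading copy in leaf, had 72, 81 and 64.8 CPM in OE leaf and 68.7, 72.4 and 63.1 CPM in WT leaf. The groups overlapped, and the log2 change was 0.09 (SE 0.0896, adjusted p = 0.44). CHS7 had 13, 13.7 and 9.86 CPM in OE leaf and 9.65, 11.1 and 9.56 CPM in WT leaf (log2 change 0.27, SE 0.123, adjusted p = 0.0772). Without OE leaf replicate 3, its lowest OE leaf library, CHS7 passed as higher (0.42, adjusted p = 0.00889).

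Glyma.08G109400, which leads the chromosome 8 copies in leaf, had 48.6, 53.4 and 47.1 CPM in OE leaf and 61.3, 60.6 and 56.9 CPM in WT leaf. The groups did not overlap, and the copy was 1.2-fold lower in OE leaf (log2 change -0.26, SE 0.091, adjusted p = 0.0213). That call did not pass without OE leaf replicate 1, OE leaf replicate 3 or WT leaf replicate 1 (adjusted p = 0.0638, 0.123 and 0.0596), and with library totals the value was 0.12. CHS2 had 3.55, 2.92 and 2.4 CPM in OE leaf and 4.46, 4.92 and 5.27 CPM in WT leaf, also without overlap. It was 1.64-fold lower (log2 change -0.72, SE 0.219, adjusted p = 0.00877), and did not pass without OE leaf replicate 3 (adjusted p = 0.0589) or with library totals (-0.34, adjusted p = 0.196).

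The other 4 copies were scarce in leaf. Glyma.08G109500 had 10 to 17 counts per OE leaf library and 10 to 24 per WT leaf library, and its call as lower (log2 change -0.78, adjusted p = 0.0475) was lost when any of 5 of the 6 leaf libraries was left out and with library totals (-0.4). Glyma.08G109200 had 19, 5 and 9 counts in OE leaf and 5, 7 and 39 in WT leaf, so a single WT leaf library sets its change of -1.02 (adjusted p = 0.166). Without that library, WT leaf replicate 3, the change was 0.47. CHS6 had 4 to 24 counts per WT leaf library and 14 to 26 per OE leaf library (log2 change 0.17, SE 0.404), and Glyma.08G109300 had 0 to 3 counts in every leaf library, so no fold is given for it.

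The summed level of the 8 copies was 68.57 ± 2.85 CPM per kb in WT leaf and 67.89 ± 6.79 in OE leaf, with overlapping libraries. CHS13 is not in this sum, and per kb it stood at 8.519 times the sum in WT leaf and 15.72 times in OE leaf. CHS8 held 61.3% of the sum in OE leaf and 56.9% in WT leaf, and Glyma.08G109400 21.9% and 25.9%. On counts not divided by length, the long model of Glyma.08G109400 held 35.5% in OE leaf and 40.6% in WT leaf, so its place beside CHS8 depends on that division in size but not in order. The OE leaf order per kb was that of WT leaf for the first 4 copies, CHS8, Glyma.08G109400, CHS7 and CHS2.

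**Figure D3:**
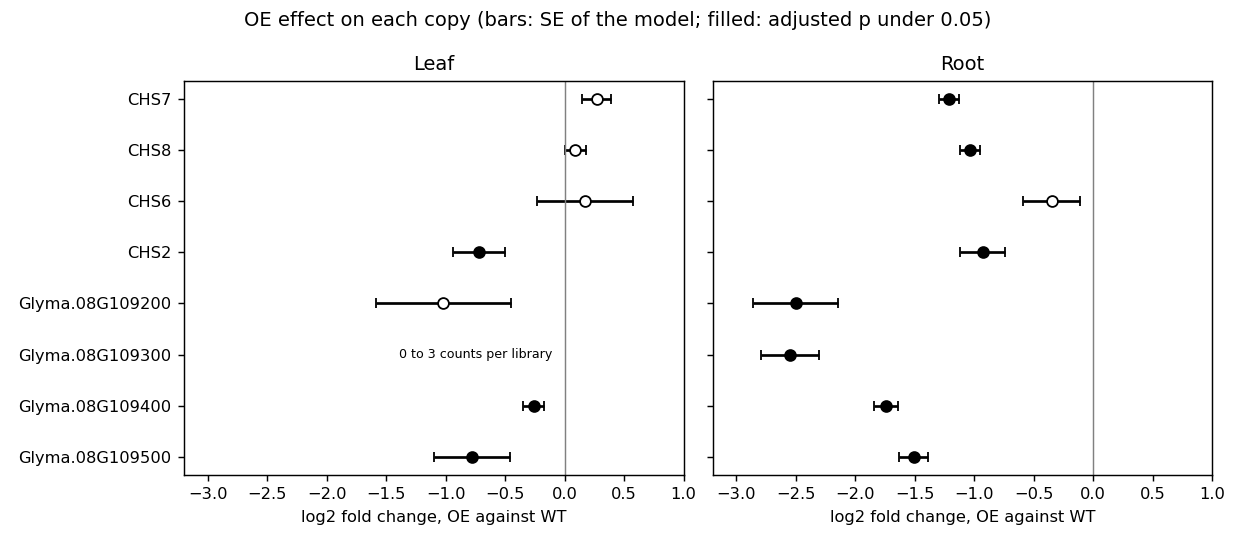
Points give the log2 fold change of each copy between OE and WT in leaf (left) and root (right), horizontal bars the model's SE, and filled points an adjusted p under 0.05. In root 7 copies lie between -0.93 and -2.55 and are filled; in leaf 3 are filled, of which Glyma.08G109400 at -0.26 changes sign with library totals in place of TMM.

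Whether the difference of a copy between OE and WT plants was alike in both tissues was tested as an interaction in the same model. For CHS7 the root effect was lower than the leaf effect by a log2 difference of -1.48 (SE 0.149, adjusted p = 2.97e-09), for Glyma.08G109400 by -1.48 (SE 0.135, adjusted p = 4.15e-10) and for CHS8 by -1.14 (SE 0.122, adjusted p = 1.24e-08). So 3 of 8 copies passed as lower and 0 as higher, against 11.2% lower and 11.6% higher over all genes tested. CHS2 did not pass, with a difference of -0.21 (SE 0.29, adjusted p = 0.665), which does not show that its changes were alike. Glyma.08G109200, Glyma.08G109500 and CHS6 did not pass either (-1.48, -0.72 and -0.52), each resting on few leaf counts, and Glyma.08G109300 has too few leaf counts for a value. Without WT leaf replicate 3 the difference of Glyma.08G109200 was -2.97 and passed (adjusted p = 0.000285).

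In OE plants the tissue pattern was that of control plants with smaller folds for CHS7 and CHS8. OE root against OE leaf gave 6 copies higher and 1, Glyma.08G109400, lower, where 40% of all genes tested were higher and 37.4% lower. CHS7 was 34.1-fold higher in root in OE plants, and 95.2-fold in WT plants. CHS8 was 4.21-fold higher in OE plants, and 9.24-fold in WT plants. Glyma.08G109400 was 5.34-fold lower in root in OE plants, and 1.92-fold in WT plants. These differences between genotypes are the same quantity as the test of the paragraph above. The call for Glyma.08G109200 (log2 1.18, adjusted p = 0.0399) was lost when any of 5 of the 6 OE libraries was left out.

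The ratio of CHS7 to CHS8 differed far more between tissues than between OE and WT plants. Its log2 value was -2.75 ± 0.0676 in WT leaf and -2.58 ± 0.124 in OE leaf, and 0.61 ± 0.0781 in WT root and 0.45 ± 0.0157 in OE root. In root the OE libraries (0.44 to 0.47) lay below the WT libraries (0.52 to 0.66), with an exact permutation p of 0.1, the smallest possible. In leaf the exact p was 0.2, and adjusted over both tests each p was 0.2.

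The other genes of the pathway give the setting of these values. Of 36 identifiers written down for it, 23 had a name that matched RefSeq and 22 were tested, DFR1 being too scarce. In root FLS1, DFR2, ANS2 and ANS3 had under 10 counts in each library and are left out of the count, a choice made after the values had been seen. Of the other 18, 12 were lower in root, 1 was higher and 5 did not pass, with a median log2 change of -0.46. In leaf 8 of the 22 were higher, 4 lower and 10 did not pass, with a median of 0.04. With library totals in place of TMM the leaf split was 14 higher and 2 lower, and the root split 11 lower and 1 higher. With those totals 19937 of all 35968 genes tested were called in leaf, in either direction, and 11364 in root. The median of all genes moved to 0.38 in leaf and 0.07 in root, so the leaf split moved along with all genes. For the splits with TMM the backgrounds are those given for the CHS copies.

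Upstream of chalcone synthase, phenylalanine ammonia-lyase (PAL) opens the phenylpropanoid route, cinnamate 4-hydroxylase (C4H) follows and 4-coumarate:CoA ligase (4CL) makes the starter that chalcone synthase uses. In root PAL1.2 fell from 9.01 to 3.35 CPM (log2 change -1.43, adjusted p = 6.27e-07), PAL1.3 from 10.5 to 4.08 CPM (-1.36, adjusted p = 1.58e-09) and PAL1.1 from 151.7 to 74.3 CPM (-1.03, adjusted p = 1.32e-11). PAL2.3, at 308.5 CPM in WT root, fell by 0.83 on the log2 scale, 4CL1 by 0.71, C4H by 0.59 and 4CL2 by 0.38. PAL3.1 rose in both tissues. In root it went from 11 to 21.8 CPM (log2 change 0.98, adjusted p = 2.97e-06), and in leaf from 0.384 to 5.99 CPM (3.94, SE 0.325, adjusted p = 9.18e-12). Its WT leaf libraries held only 2, 8 and 4 counts, so the leaf fold is not precise. In leaf PAL1.1 fell by 0.84 on the log2 scale, PAL2.1 rose by 0.38, and the falls of 4CL1 (-0.32) and C4H (-0.23) became 0.06 and 0.16 with library totals. Those falls did not pass without OE leaf replicate 3 (adjusted p = 0.0727 and 0.115), nor that of C4H without WT leaf replicate 1 or 3 (0.151 and 0.0755).

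Partners and branch enzymes follow. Chalcone reductase works with chalcone synthase to make the deoxychalcone that leads to daidzein, and its gene CHR5 fell by 0.5 in root on the log2 scale. CHI1A, a chalcone isomerase that closes the ring of the product, fell by 0.34 in root, while CHI4B, a chalcone isomerase-like gene, rose by 0.28 in leaf (adjusted p = 0.0203). Isoflavone synthase (IFS) diverts the product to isoflavonoids. IFS2 fell in both tissues, from 254.5 to 137.5 CPM in root (-0.89, adjusted p = 1.77e-10) and from 69.6 to 22.2 CPM in leaf (-1.65, SE 0.0933, adjusted p = 7.89e-16). IFS1, at 828.3 CPM in WT root, fell by 0.45 there. MYB176, the known activator of CHS8, rose by 0.28 in leaf (adjusted p = 0.00852) and fell by 0.23 in root (adjusted p = 0.0207), a fall that did not pass with library totals (-0.14, adjusted p = 0.183) or when replicate 1 or 2 of either root group was left out (adjusted p up to 0.0915). The leaf call of CHI4B was lost without OE leaf replicate 2 or WT leaf replicate 1 or 3, and in DESeq2 (adjusted p = 0.0813).

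On the flavonol and anthocyanin branches 4 genes rose in leaf. Flavonol synthase FLS1 rose by 0.32 on the log2 scale (adjusted p = 0.0055). Dihydroflavonol reductase DFR2 went from 3.73 to 8.64 CPM (1.21, adjusted p = 0.000235). Anthocyanidin synthases ANS2 and ANS3 went from 2.75 to 8.65 CPM and from 2.85 to 6.3 CPM (1.65 and 1.14, adjusted p = 1.72e-05 and 0.00154). These 4 genes had under 10 counts in each root library, so nothing is read from them in root.

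**Figure D4:**
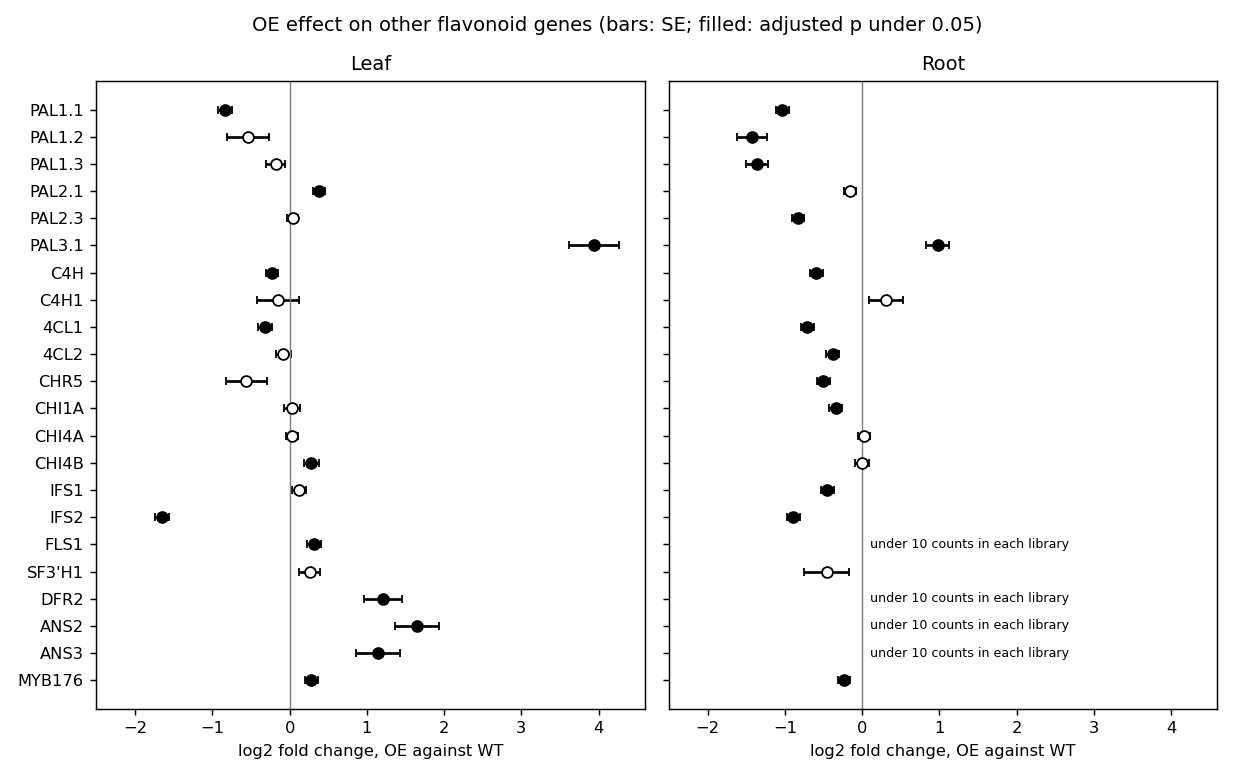
Points give the log2 fold change between OE and WT of the 22 other flavonoid genes tested, in leaf (left) and root (right), with the SE as bars and filled points for an adjusted p under 0.05; genes are ordered by their step. In root 12 filled points lie below 0 and PAL3.1 above it; in leaf 8 lie above 0 and 4 below, of which C4H and 4CL1 change sign with library totals in place of TMM.

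Genes outside the family were ranked by likeness to each copy that reached 10 CPM in a group, as the root mean square difference of centred log2 CPM over the 12 libraries. For Glyma.08G109400 the most alike gene was PAL1.3 (0.2), with 21.2 CPM in WT leaf, 18.8 in OE leaf, 10.5 in WT root and 4.08 in OE root. For CHS8 it was Glyma.16G033900 (0.14), with 10.8, 10.6, 97.5 and 43.2 CPM in the same order of groups, followed by Glyma.11G056200 (0.15). For Glyma.08G109500 they were Glyma.05G175800 (0.2) and Glyma.14G222400 (0.26). For CHS7 they were Glyma.19G246500 (0.17) and Glyma.11G153000 (0.19), but both stood at 0 CPM in WT leaf and OE leaf, with 8.95 and 7.97 CPM in WT root. The leaf side of those matches to CHS7 is therefore set by the prior count of 2 and not by measured leaf levels. Glyma.05G175800 was also scarce in leaf (0.577 CPM in WT and 0.286 in OE), so the prior count weighs on its match to Glyma.08G109500. The second gene for Glyma.08G109400 was Glyma.07G090400 (0.22), with only 0.0683 CPM in OE root.

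Outside the 8 copies, CHS13 (Glyma.19G105100, chromosome 19) was the leading CHS gene of leaf; it and the loci that follow were added after their counts had been seen. It had 859.7, 911.6 and 909.2 CPM in the WT leaf libraries and 1640, 1703 and 1542 CPM in the OE leaf libraries. Each OE leaf library was above each WT leaf library, and the log2 change was 0.87 (SE 0.0835, adjusted p = 3.06e-10). Per kb its level was 8.519 ± 0.403 times the sum of the 8 copies in WT leaf and 15.72 ± 0.806 times in OE leaf. In root it had 1.46 ± 0.419 CPM in WT and 1.86 ± 0.207 in OE (log2 change 0.35, adjusted p = 0.187), and passed as higher without WT root replicate 2 (0.6, adjusted p = 0.034).

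The difference between its root and leaf effects did not pass (-0.51, adjusted p = 0.0891). CHS10 (Glyma.02G130400, chromosome 2) was lower in OE than in WT plants in both tissues. It went from 8.31 ± 0.208 to 4.57 ± 1.8 CPM in leaf (log2 change -0.87, adjusted p = 0.000729) and from 13.7 ± 0.818 to 6.72 ± 0.529 CPM in root (-1.03, adjusted p = 1.4e-05). CHS11 (Glyma.01G091400, chromosome 1) had 0 counts over the WT leaf libraries and 12 over the OE leaf libraries. In root it had 4 over the WT libraries and 141 over the OE libraries. It passed the filter on low counts only through OE root, where it was highest, so its calls as higher in OE are not read as results. Further along chromosome 8, Glyma.08G110300, Glyma.08G110500, Glyma.08G110700 and Glyma.08G110900 had 56, 36, 145 and 30 counts over all 12 libraries. Only Glyma.08G110700 of these passed the filter on low counts, and only through WT root, where it was highest. It had 106 counts over the WT root libraries and 30 over the OE root libraries, and its call as lower is not read as a result. In leaf it had 1 count over the WT libraries and 8 over the OE libraries and did not pass (adjusted p = 0.195).

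**Figure D5:**
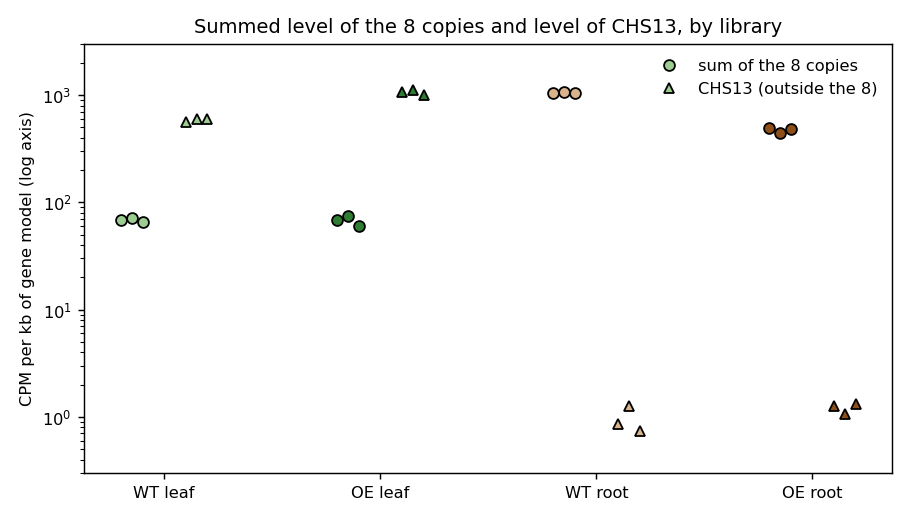
For each group, circles give the summed level of the 8 copies and triangles the level of CHS13 in single libraries, in CPM per kb of gene model on a log axis. In leaf the triangles lie above the circles, and in OE leaf above those of WT leaf; in root the triangles lie near 1 CPM per kb and the circles between 439.2 and 1069.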

How the data were processed

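RNA was extracted with TRIzol and made into Illumina libraries, per the labels' protocols. The deposited values are read counts per gene model that the authors made with featureCounts 2.0.1 on the Wm82.a2.v1 annotation, per the file headers. The command ran over paired ends with 4 threads, per the file headers, and no aligner is stated in the labels or headers. Counts were fitted in R 4.3.3 with edgeR 4.0.16, using TMM scaling, filterByExpr (35968 genes kept, 7549 not, 99.94% of counts), and robust quasi-likelihood tests in 1 model of 4 group means over 12 libraries (8 residual degrees of freedom). Benjamini-Hochberg adjustment ran over all genes tested, and calls needed an adjusted p under 0.05. A SE is the absolute log2 change over the square root of F. The fit was tested on simulated data. DESeq2 1.42.0, RLE factors, library totals, no filter, a replicate block, smaller fits and leaving out each library were the alternatives. Exact permutation tests used scipy 1.17.1.

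The members and lists were chosen with earlier results of these data known. Names of pathway genes and of CHS genes other than CHS2 were kept where exactly 1 RefSeq gene (Glycine_max_v4.0) on the chromosome had a matching symbol and a span within 10%. GmZF351, RBCS2 and RCA11 were not matched in this way. No identifier of the table matched RefSeq directly, CHS2 rests on the identifier given, and the chromosome 8 copies could not be told apart by span and are named by identifier. All pathway genes that passed are named with their log2 change, and levels in both groups are given for the 5 largest changes per tissue. Likeness used a prior count of 2. No sequence was used here, so promoter motifs were not searched.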

Additional observations from a re-analysis of the deposited data

Results flagged for a closer look

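These genes are listed because the OE effect differed between root and leaf by the test of the difference itself in edgeR. Among the CHS copies this was CHS7 with a log2 difference (root minus leaf) of -1.48, CHS8 with -1.14 and Glyma.08G109400 with -1.48. Among the other flavonoid genes the root effect was lower than the leaf effect for PAL3.1 (-2.96), PAL1.3 (-1.19), PAL2.3 (-0.87), IFS1 (-0.56), PAL2.1 (-0.54), MYB176 (-0.52), 4CL1 (-0.39), C4H (-0.36) and CHI1A (-0.36), and higher for IFS2 (0.76). ANS2 had -3.94, a value that rests on 7 root counts in all. The leaf side of the PAL3.1 value rests in part on 14 counts over the WT leaf libraries. MYB176 was called higher in leaf and lower in root (adjusted p of the difference 0.00107), and its root fall was lost in 4 of the fits that left out a root library. Their causes were not tested.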

How the results depend on the processing

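The 7 lower CHS copies of root were the same number in each alternative run (7 to 7 when a library was left out), and the differences of CHS7, CHS8 and Glyma.08G109400 between tissues passed in each. Leaf values hung on scaling: with library totals the median of all genes moved to 0.38 in leaf, 0.07 in root, 1.04 and 0.68 for root against leaf in WT and OE, and -0.32 for the difference. There 2 CHS copies were higher in leaf and 0 lower (CHS7 0.65, CHS8 0.47), and Glyma.08G109400 (0.12), C4H (0.16), 4CL1 (0.06), 4CL2 (0.31), PAL1.3 (0.21) and C4H1 (0.23) became positive, of which 4CL2 passed there and 4CL2, PAL1.3 and C4H1 had not been called before. Relative to that median the copies kept their values. With library totals 19937 of all 35968 genes tested were called in leaf, in either direction. Leaving out 1 library gave 1 to 3 called copies in leaf, 3 to 4 for the difference, 7 to 7 and 6 to 7 for root against leaf in WT and OE, 10 to 13 pathway genes in leaf and 12 to 13 in root, and CHS7 to CHS8 log2 ratio differences of 0.11 to 0.24 in leaf and -0.21 to -0.14 in root. The single leaf call without OE leaf replicate 3 was CHS7, higher, and without OE leaf replicate 1 it was CHS2, lower. Within each tissue, OE and WT libraries of the same replicate number had correlations of deviations between -0.02 and 0.05. The labels do not state that replicate numbers pair samples. As the deviations are from means of 3 libraries, these values cannot show that pairing was absent. Leaf and root libraries of the same number were not compared in this way, and the tests between tissues treat them as unpaired. With the replicate block 2 copies passed in leaf (Glyma.08G109500 at adjusted p = 0.0523), 7 in root and 4 for the difference (Glyma.08G109200, adjusted p = 0.0458). Leaf counts of 36 to 64 per library limit CHS2, and counts under 50 limit CHS6, Glyma.08G109200, Glyma.08G109300 and Glyma.08G109500.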
